A study of Homo sapiens with 24 samples.

Results

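Oxidative phosphorylation is carried out by complexes whose subunits are encoded in both genomes of the cell. Complexes I, III and IV pass electrons from NADH and ubiquinol to oxygen and pump protons across the inner mitochondrial membrane, complex II feeds in electrons from succinate, and complex V, the ATP synthase, uses the proton gradient to make ATP. Every complex but complex II combines subunits made from mitochondrial DNA, which is transcribed as long polycistronic precursors, with subunits made from nuclear genes, which are transcribed one by one. Glucocorticoids (GCs) are steroid hormones that act through a nuclear receptor and reshape the use of fuels in many tissues.

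The members were 104 protein-coding genes chosen by symbol alone, 13 of mitochondrial DNA and 91 nuclear, of 33126 genes and 19265 protein-coding genes with a transcript in the table. The symbols were those of the NDUFA, NDUFB, NDUFC, NDUFS, NDUFV, UQCR, ATP5, SDH and numbered COX families with CYC1 and the mitochondrial ND, CO, CYB and ATP genes, without the NDUFAF assembly factors. A549, an established line from a human lung adenocarcinoma, was treated with 100 nM of the synthetic GC dexamethasone (dex) or with its vehicle ethanol (EtOH, 0.02% of the medium). Each treatment was sampled at 6 times (1 h, 3 h, 5 h, 7 h, 9 h and 11 h) for poly-A RNA-seq, with 2 libraries labelled as biological replicates in each of 12 groups, 24 in all. The study's methods speak of triplicates, while the labels and the count table used here hold 2 libraries per group. A single cell line without a genetic change was used, and each time point has its own EtOH group. The labels also state a treatment of 1 h for every library, and the duration given for each library was used here.

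The libraries held 6708864 to 13748598 counts. The epithelial keratins KRT8 and KRT18 had at least 14552 counts in every library and EPCAM at least 31, while PTPRC of leukocytes and COL1A2 and DCN of fibroblasts had at most 5 counts. The GC targets FKBP5 and TSC22D3 were both called higher with dex at every time point from 3 h on. Of the 104 members, 98 passed the filter on low counts, all 13 mitochondrial and 85 nuclear. The other 6 are paralogs of more widely used subunits, COX4I2, COX6A2, COX7B2 and COX8C with 0 counts in all libraries, COX7A1 with at most 3 and NDUFA4L2 with at most 5 in a library. COX6B2, the testis form of a complex IV subunit, passed with 1 to 12 counts per library.

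The members' counts came mostly from the small genome. The 13 mitochondrial genes took 3.30% to 6.32% of the counts in a library and the 91 nuclear genes 0.568% to 0.729%, so that mitochondrial genes made up 83.5% to 90.8% of member counts. Per length, as reads per kilobase of transcript, scaled to depth (RPKM), the lowest mitochondrial gene, MT-ND6, stood above the highest nuclear gene. The RPKM in the 12 EtOH libraries was 11794 ± 1748 (SD, n = 12) for MT-CO1, the catalytic subunit of complex IV, and 760 ± 85.7 for MT-ND6. It was 534 ± 47.0 for ATP5F1B, the catalytic beta subunit of the ATP synthase, and 451 ± 75.3 for ATP5MC3, a gene for the proton-carrying c-ring.

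Within a complex the genomes lay far apart on this scale. The median RPKM over complex I subunits was 2293 for 7 mitochondrial and 37.2 for 38 nuclear genes, and in complex IV it was 7977 for 3 mitochondrial and 91.7 for 12 nuclear genes above 1 RPKM. The 4 genes of complex II, all nuclear, ranged from 53.4 to 87.0. Mitochondrial RNAs also carry the gene order of their genome. MT-ND6 is the only member read from the other strand, and MT-ATP8 and MT-ATP6 share the end and the start of their coding sequences. This stretch of 46 bases, shorter than a read of 50, lies at chrM:8527-8572 on the plus strand of GRCh38 (GENCODE release 29), and it is printed because both subunits of complex V are counted separately in the table:
MT-ATP8 and MT-ATP6: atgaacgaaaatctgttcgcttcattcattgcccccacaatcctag

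**Figure D1:**
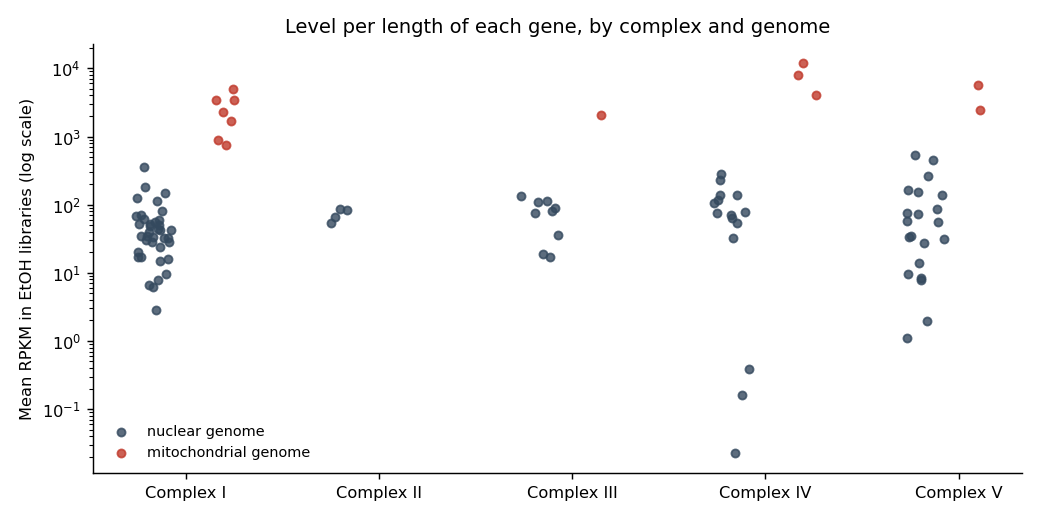
Level per length of each member with counts, as mean RPKM over the 12 EtOH libraries on a log scale, by complex (horizontal axis) and genome (colour). Every mitochondrial gene, from 760 for MT-ND6 to 11794 for MT-CO1, lies above every nuclear gene, of which ATP5F1B was the highest at 534.

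The first comparison asked how dex moved the mitochondrial transcripts at each time point. Counts were tested with the quasi-likelihood F-test of edgeR, Benjamini-Hochberg adjusted over all features, and called at an adjusted p of at most 0.1. By this test no mitochondrial gene was called at 1, 5 or 11 h, 1 of 13 was lower at 3 h, 10 of 13 were lower at 7 h and 6 of 13 were higher at 9 h. Over all 19897 features (15337 genes and 4560 transcripts that could not be joined to a gene), 7.66% were called higher and 5.29% lower at 3 h, 13.4% higher and 12.4% lower at 7 h, and 9.79% higher and 8.42% lower at 9 h. At the other time points the shares were 0.523% higher and 0.342% lower at 1 h, 11.2% and 11.9% at 5 h, and 5.31% and 3.27% at 11 h. The median log2 fold change over the 13 genes was 0.18, 0.03, 0.09, -0.25, 0.31 and 0.18 from 1 to 11 h, and over all features it lay between -0.01 and 0.00.

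MT-CO1 had 18225 and 15547 CPM (counts scaled to a common depth by TMM) in the dex libraries at 7 h and 20640 and 18933 in the EtOH libraries. Both dex libraries lay below both EtOH libraries, with a log2 fold change of -0.23 (SE 0.08, adjusted p = 0.0375 by edgeR). At 9 h MT-CO1 had 20710 and 20111 CPM with dex and 16033 and 14593 with EtOH (log2 fold change 0.43, SE 0.12, adjusted p = 0.0294 by edgeR). The order of the groups was thus the opposite one, again without overlap.

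MT-ND4, a proton-pumping subunit of complex I, followed the same course. It had 6547 and 5664 CPM with dex and 7924 and 6746 with EtOH at 7 h (log2 fold change -0.26, SE 0.08, adjusted p = 0.0201 by edgeR). At 9 h it had 7814 and 8199 CPM with dex and 5607 and 5973 with EtOH (0.48, SE 0.12, adjusted p = 0.0113 by edgeR). The 9 h EtOH libraries were lower than both EtOH libraries at 7 h, and the dex libraries at 9 h were higher than those at 7 h. MT-ND4 did not pass the test over time in EtOH (adjusted p = 0.751 by edgeR), and change over time in dex was not tested.

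MT-ND4L, which overlaps MT-ND4 on the same RNA, had the largest change at 9 h, with 657 and 686 CPM in dex and 480 and 457 in EtOH (log2 fold change 0.53, SE 0.11, adjusted p = 0.00342 by edgeR). The other genes called higher at 9 h were MT-CYB, the cytochrome b of complex III, MT-CO3 and MT-ATP6. At 7 h the genes not called were MT-ND1, MT-ND6 and MT-CYB, each with a log2 fold change of -0.13. MT-ND6 had 337 and 336 CPM with dex and 384 and 353 with EtOH at 7 h, and was called at no time point. MT-ATP8 had the only call at 3 h, with 365 and 357 CPM in dex and 472 and 398 in EtOH (log2 fold change -0.28, SE 0.10, adjusted p = 0.0732 by edgeR). MT-ND1 and MT-ND6 were thus the 2 genes called at no time point, and 5 genes were called lower at 7 h and higher at 9 h. Both dex libraries lay below both EtOH libraries for 11 of 13 genes at 7 h, against 28.2% of all features, and above them for 10 of 13 at 9 h, against 25.9%.

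**Figure D2:**
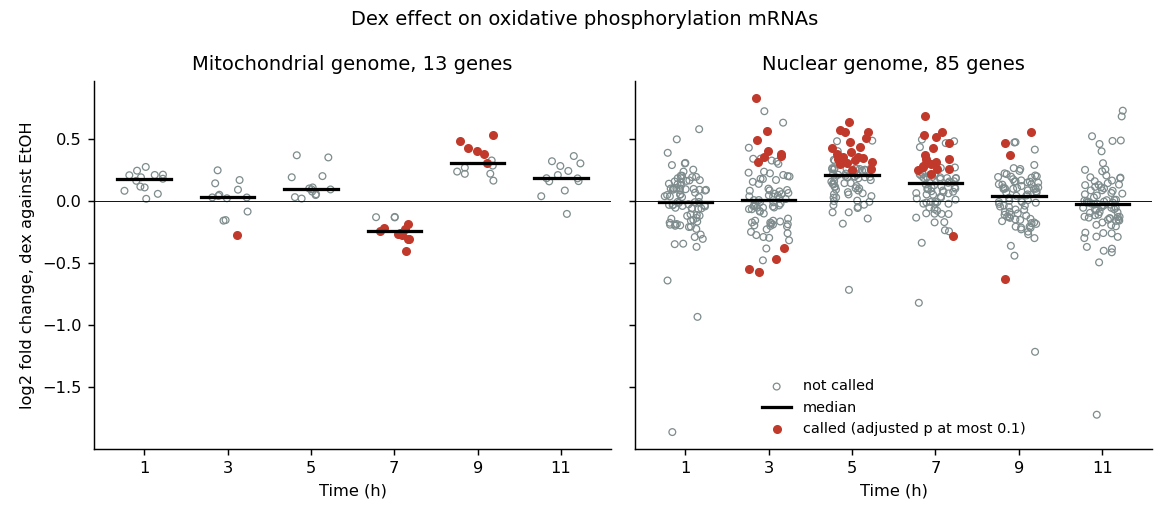
Log2 fold change of dex against EtOH (vertical axis) at each time point (horizontal axis) for the 13 mitochondrial and 85 nuclear genes tested. Filled points passed an adjusted p of at most 0.1, open points did not, and bars are medians. The mitochondrial median was -0.25 at 7 h and 0.31 at 9 h, while the nuclear median was 0.21 at 5 h and 0.15 at 7 h.

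The share of all counts on mitochondrial genes moved with these calls. At 7 h it was 4.73% and 4.13% with dex and 5.63% and 5.04% with EtOH, and at 9 h it was 5.33% and 5.44% with dex and 4.34% and 4.47% with EtOH. In bulk RNA a lower share and fewer copies per cell cannot be told apart. At 5 h the dex libraries held 4.38% and 6.32%, outside both EtOH libraries on either side (5.07% and 5.06%), and at 11 h the EtOH libraries held 3.30% and 5.45%. The EtOH library of replicate 1 at 11 h had the lowest share of all 24 and the dex library of replicate 2 at 5 h the highest.

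The mitochondrial calls depended on single libraries and on the estimate of the spread. At 7 and 9 h the number called changed with the library left out. Those fits leave 1 library in a group, so their counts are not given. One fit over all 24 libraries, which shares the spread between time points, called 0 at 7 h and 1 higher at 9 h. DESeq2 called 6 lower at 7 h and 5 higher at 9 h. At 7 h these fits called 18.5% and 13.7% of all features in either direction, and their shares at 9 h are not given. In the fit over 24 libraries the dex effect did not differ between time points for any of the 13 genes (smallest adjusted p = 0.29 by edgeR, 0 genes at an unadjusted p under 0.05).

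**Figure D3:**
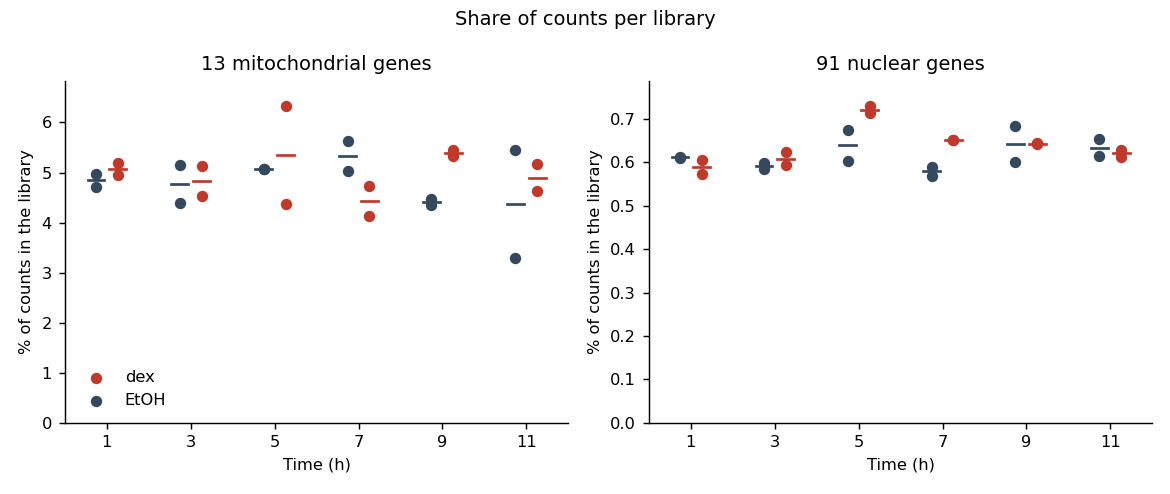
Share of all counts in a library (vertical axes, in %) on the 13 mitochondrial and the 91 nuclear members, by time point, with points for single libraries and bars for the mean of 2. Dex lies below EtOH at 7 h and above it at 9 h for the mitochondrial genes, and above EtOH at 5 and 7 h for the nuclear genes, with overlap in the mitochondrial share at 1, 3, 5 and 11 h.

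The second comparison asked the same of the nuclear genes. None of the 85 was called at 1 or 11 h. At 3 h 8 were higher and 4 lower, at 5 h 21 were higher and 0 lower, at 7 h 18 were higher and 1 lower, and at 9 h 3 were higher and 1 lower. The 24.7% of nuclear members called higher at 5 h compare with 11.2% of all features, and the 21.2% at 7 h with 13.4%. The median log2 fold change was 0.21 at 5 h and 0.15 at 7 h and between -0.02 and 0.04 at the other time points. Of the 85 genes, 74 had a fold change above 0 at 5 h and 63 at 7 h, and in 44 and 42 of them both dex libraries exceeded both EtOH libraries, against 27.2% and 28.8% of all features tested.

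Over all time points, 38 of 85 nuclear genes were called at least once, 35 of them higher at some time point, 6 lower at some time point and 3 in both directions. Called at least once were 44.7% of nuclear members and 41.5% of all features, called higher at some time point 41.2% against 21.4%, and called lower 7.06% against 21.4%. At 5 or 7 h 31 were called higher (36.5%, against 16.4% of all features), and 8 at both (9.41% against 8.29%). The changes were small: the largest called change in either direction was 0.83 on the log2 scale. Split by complex, the genes called higher at 5 h were 8 of 38 in complex I, 1 of 4 in complex II, 2 of 9 in complex III, 5 of 13 in complex IV and 5 of 21 in complex V, and the medians of the log2 fold change ran from 0.05 in complex II to 0.25 in complex V. At 7 h the counts were 7, 2, 1, 4 and 4. Over all features 11.2% were called higher at 5 h and 13.4% at 7 h. The 1 of 9 genes in complex III at 7 h is a smaller share than that. Calls were found in every complex at both times, but those in complexes II and III rested on 1 or 2 genes. These counts are too small to compare the complexes.

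The replicates set limits on these counts as well. At 5 h 10 of 85 passed an adjusted p of 0.05, DESeq2 called 5 higher, and one fit over 24 libraries called 9 higher, where these fits called 13.4% and 21.0% of all features in either direction. The number of nuclear genes called higher at 5 h also changed with the library left out. At 7 h DESeq2 called 7 and the fit over 24 libraries 8 (13.7% and 18.5% of all features in either direction). At 3 and 7 h the number called depended on the library left out as well. At 9 h the nuclear genes called were mostly lower without EtOH replicate 1 and mostly higher without EtOH replicate 2. The number of members called at 1 and 11 h changed with the library left out too. All these left-out fits leave 1 library in a group, so their counts are not given here.

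A measured property of the libraries moved with the nuclear genes. The nuclear members have short mRNAs, with a median of 1098 bases for the most counted transcript of each gene against 2960 for all genes tested. A library's composition was scored as the median deviation of transcripts under 1000 bases minus that of transcripts over 3000 bases, in log2 CPM around each gene's mean. Across the 24 libraries the median deviation of the nuclear members had a Pearson r of 0.76 with this score (Spearman rho 0.69, and r of 0.56 over 22 libraries without those farthest from the median score), while that of the mitochondrial members had an r of 0.21. These correlations are descriptions, since both measures come from the same libraries. The EtOH library of replicate 2 at 9 h had the highest score, 0.21, and the highest nuclear median, 0.26.

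At 3 h both dex libraries scored above both EtOH libraries (-0.02 and -0.03 against -0.06 and -0.04), and at 5 and 7 h the treatments overlapped. At 5 h it was 0.05 and 0.11 with dex and 0.09 and -0.06 with EtOH, and at 7 h it was -0.01 and -0.05 with dex and -0.02 and -0.07 with EtOH. A like score for base composition, the genes with the most GC minus those with the least, did separate the treatments at 7 h (-0.04 and -0.16 with dex, -0.36 and -0.26 with EtOH), at 3 h and, in the other direction, at 9 h. With each library corrected for GC content and transcript length, an alternative added after the data were seen, 18 nuclear genes were higher at 5 h and 18 at 7 h, with medians of 0.17 and 0.11, and 9 mitochondrial genes were lower at 7 h and 8 higher at 9 h. In that fit 1990 of 15337 genes (13%) were higher at 5 h, 14.5% higher and 14.3% lower at 7 h, and 10.7% higher at 9 h. At 3 h the correction gave 2 nuclear genes higher and 5 lower, with 7.75% and 6.43% of all genes. The part of library composition in the results was otherwise not tested.

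**Figure D4:**
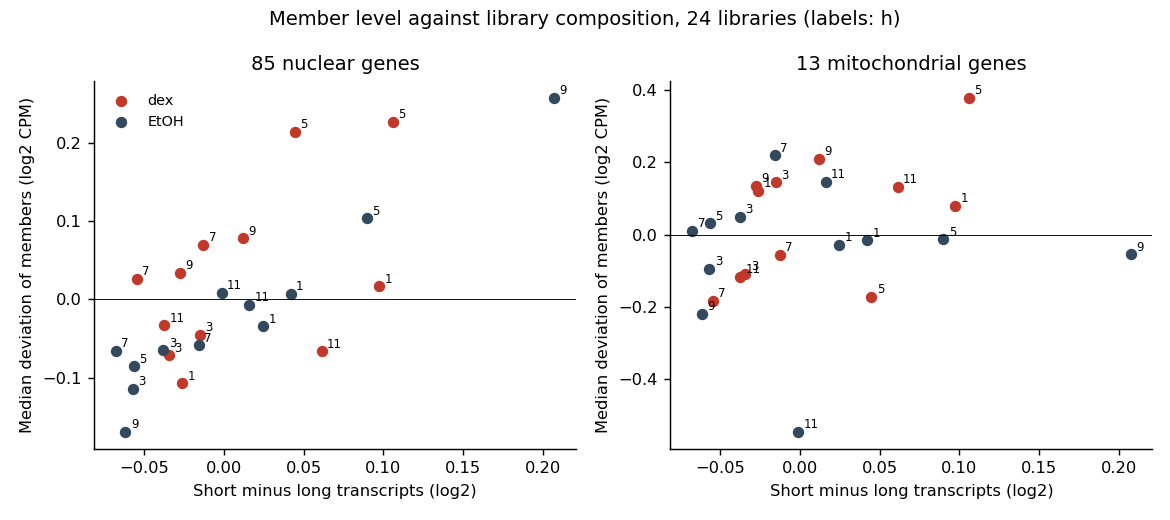
Median deviation of the members from their own means (vertical axes, log2 CPM) against the library score of short minus long transcripts (horizontal axes, log2), one point per library, labelled with its time in h. For the 85 nuclear genes r was 0.76 over 24 libraries, with the EtOH library of replicate 2 at 9 h at the far right, and for the 13 mitochondrial genes it was 0.21.

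On average over the 6 time points, in one fit over all libraries, 9 nuclear members were higher, 1 was lower and no mitochondrial member was called, where 16.4% of all features were higher and 17.6% lower. For the mitochondrial genes the smallest adjusted p was 0.234 and none had an unadjusted p under 0.05, although the fold change of all 13 was above 0, with a median of 0.11. The nuclear median was 0.06. Leaving out EtOH replicate 2 at 11 h added mitochondrial calls on average, and leaving out EtOH replicate 2 at 9 h added nuclear calls.

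NDUFA8, an accessory subunit of complex I, had the smallest adjusted p of the members on average over the time points, while at 7 h that of ATP5MC3 was smaller. It had 45.4 and 45.6 CPM with EtOH and 63.8 and 72.3 with dex at 5 h (log2 fold change 0.57, SE 0.12, adjusted p = 0.000157 by edgeR). At 7 h it had 35.1 and 38.1 CPM with EtOH and 60.9 and 56.4 with dex (0.68, SE 0.10, adjusted p = 2.46e-06 by edgeR). At 3 h the change was 0.36 (SE 0.12, adjusted p = 0.067 by edgeR). The dex libraries lay above the EtOH libraries at 3, 5, 7 and 9 h and overlapped them at 1 and 11 h. On average the log2 fold change was 0.35 (SE 0.05, adjusted p = 8.68e-06 by edgeR), a 1.27-fold difference, higher in 6 of 6 time points, and it stayed called under every alternative run for it.

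SDHD, a membrane anchor of complex II, was the only member called at 4 time points. At 3 h it had 51.1 and 54.3 CPM with dex and 74.1 and 62.5 with EtOH (log2 fold change -0.38, SE 0.12, adjusted p = 0.0323 by edgeR). At 5 h it had 80.9 and 82.7 CPM with dex and 56.6 and 64.0 with EtOH (0.43, SE 0.11, adjusted p = 0.00302 by edgeR), and at 9 h 82.0 and 76.7 against 56.8 and 58.8 (0.47, SE 0.12, adjusted p = 0.014 by edgeR). At 7 h it was called with a change of 0.26. The groups did not overlap at these times, with dex below EtOH at 3 h and above it later, and the test of a difference between time points passed (adjusted p = 0.00876 by edgeR). SDHD was 0.18 higher on average (SE 0.05, adjusted p = 0.00557 by edgeR).

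The other genes of complex II differed from SDHD in their calls. SDHB, the iron-sulfur subunit, was higher at 3 h (log2 fold change 0.36) and at 7 h (0.28, adjusted p = 0.034 by edgeR), with 87.6 and 89.9 CPM in dex and 65.7 and 81.0 in EtOH at 7 h. SDHA, the flavoprotein, and SDHC, the other membrane anchor, were called at no time point, and their average log2 fold changes were 0.00 and 0.05 with standard errors of 0.05 and 0.04. CYC1, the cytochrome c1 of complex III, was not called either (0.08 on average, SE 0.09). UQCRC1, a core protein of complex III, was the member with the next smallest p for a difference between time points (adjusted p = 0.0256 by edgeR). It had 156 and 165 CPM with dex and 107 and 125 with EtOH at 7 h (log2 fold change 0.47, SE 0.08, adjusted p = 4.35e-05 by edgeR), whereas at 1 h the dex libraries were the lower ones, 105 and 132 against 144 and 158, a difference that did not pass (adjusted p = 0.472 by edgeR).

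Both catalytic and membrane parts of the ATP synthase held called genes. ATP5F1B, its beta subunit, had 825 and 777 CPM with dex and 617 and 644 with EtOH at 5 h (log2 fold change 0.34, SE 0.10, adjusted p = 0.0113 by edgeR) and 704 and 707 against 537 and 577 at 7 h (0.34, SE 0.07, adjusted p = 0.000394 by edgeR). ATP5MC3 had 594 and 588 CPM with dex and 387 and 430 with EtOH at 7 h (0.53, SE 0.07, adjusted p = 5.11e-07 by edgeR), and was also called at 3 and 5 h. No library of one treatment reached the other at these times, but at 11 h the dex libraries of ATP5MC3 held 593 and 396 CPM and the EtOH libraries 571 and 428. ATP5PB, the b subunit of the stalk, changed at 9 h alone, with 247 and 269 CPM in dex and 154 and 201 in EtOH (0.55, SE 0.13, adjusted p = 0.008 by edgeR).

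NDUFA5, NDUFS1 and UQCRB were also higher on average, as was ATP5F1A, the alpha subunit of the ATP synthase, by 0.16, 0.11, 0.10 and 0.09 on the log2 scale. NDUFS1, UQCRB and ATP5F1A fall outside the rule for named genes and were named after their values were seen. NDUFA5 lost its call in 9 of the 24 fits that left out a library and ATP5PB in 2. The member lower on average was ATP5MGL, a gene related to the g subunit, at -0.79 (SE 0.25, adjusted p = 0.014 by edgeR), on 1 to 13 counts per library. ATP5IF1, the inhibitor of the ATP synthase, was not called, with -0.12 on average (SE 0.06, adjusted p = 0.172 by edgeR).

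**Figure D5:**
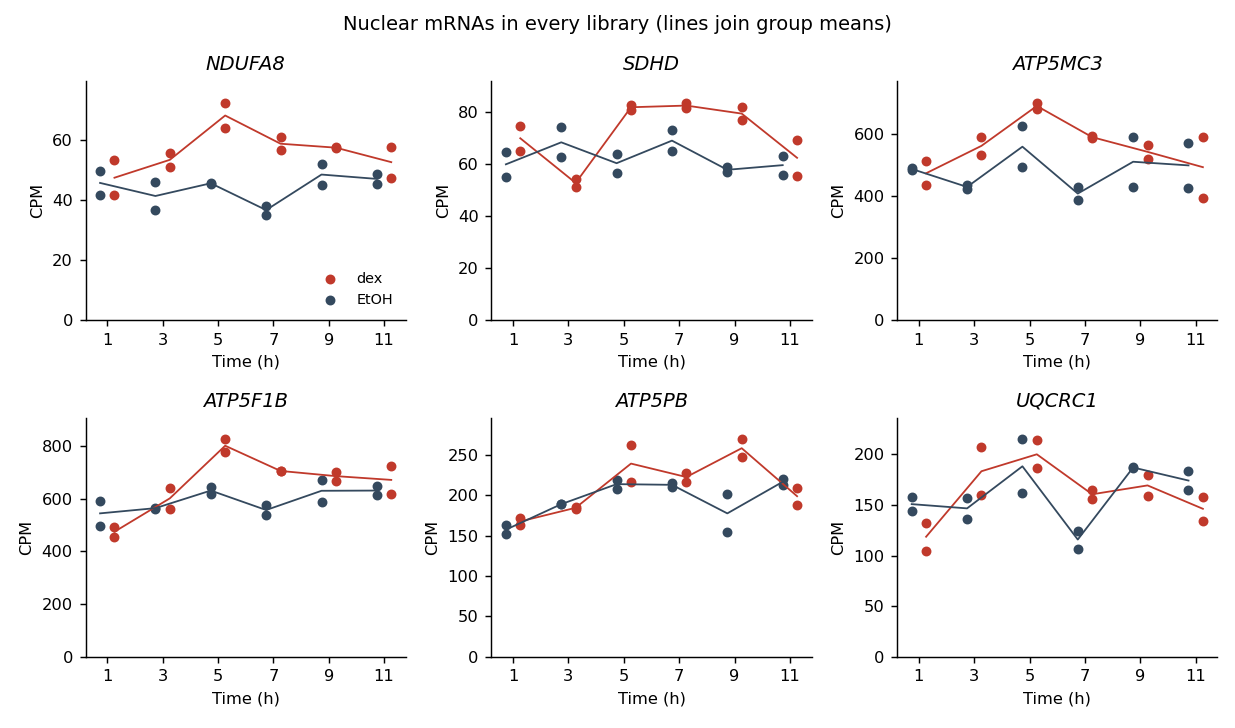
CPM (vertical axes, from 0) of 6 nuclear members in every library against time, with lines through the mean of each group of 2. The dex libraries of NDUFA8 lie above the EtOH libraries from 3 to 9 h, those of SDHD lie below at 3 h and above at 5, 7 and 9 h, and ATP5PB stands apart at 9 h.

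The genes with the largest calls at 3 h moved in both directions. ATP5F1D, the delta subunit of the ATP synthase, had 7.96 and 7.02 CPM with dex and 4.39 and 3.98 with EtOH (log2 fold change 0.83, adjusted p = 0.0134 by edgeR), and NDUFS6 and NDUFB5 of complex I rose by 0.57 and 0.49. NDUFA4, a subunit of complex IV, had 85.3 and 108 CPM with dex and 155 and 130 with EtOH (-0.57, adjusted p = 0.00109 by edgeR), and NDUFB1 and ATP5MD were at -0.55 and -0.47. Several of these changed sign or lost their call later. NDUFS6 had 23.2 and 19.7 CPM with dex and 11.9 and 17.5 with EtOH at 7 h, but 19.7 and 20.6 with dex and 31.3 and 31.5 with EtOH at 9 h (-0.63, adjusted p = 0.00621 by edgeR), and NDUFB1 was 0.56 higher at 5 h. NDUFA13 of complex I was 0.63 higher at 5 h, NDUFB4 was at -0.28 at 7 h and ATP5F1C, the gamma subunit of the ATP synthase, was 0.37 higher at 9 h. With the correction for GC content and transcript length, NDUFS6, NDUFB5, NDUFA8 and SDHB were not called at 3 h, nor NDUFA13 at 5 h. ATP5F1D, ATP5MC3, NDUFA4, NDUFB1, ATP5MD and SDHD kept their 3 h call. Across nuclear members, GC content had an r with the log2 fold change of 0.38 at 3 h and -0.50 at 9 h. Its part in these changes was not tested.

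The dex effect differed between time points for 9 nuclear members and no mitochondrial member, where 13.8% of all features passed that test. Over time in EtOH alone, no member passed (smallest adjusted p = 0.131 by edgeR, 14 nuclear and 0 mitochondrial genes at an unadjusted p under 0.05), and 0.0704% of all features did. DESeq2 called 10 of 98 members over time in EtOH, and 3.43% of all features. Across the 24 libraries the log2 CPM of pairs of mitochondrial genes had a median r of 0.81 (from 0.47 to 0.94), and that of pairs of nuclear genes with over 100 counts per library on average a median of 0.25 (from -0.79 to 0.90). The medians of the genomes had an r of 0.12. These are descriptions over libraries that share their depth and scaling.

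The promoters of NDUFA8 and SDHD, the nuclear members with the smallest adjusted p on average, are printed to show where the motifs searched lie. Many promoters of respiratory genes are known to carry sites for NRF1, the nuclear respiratory factor, and for ETS-family factors such as GABP. RefSeq windows on GRCh38.p14, from 250 bases before to 50 after the start site, were searched on both strands for the NRF1 motif, the ETS motif CCGGAAG and the palindromic motif of the GC receptor. Of 15843 protein-coding promoters, 8.58% held the first, 14.2% the second and 0.246% the third. A window was given for 69 of 91 nuclear members (75.8%), too few to compare the members with all promoters. Of these 69, 16 held the first, 19 the second and 0 the third. The window of ATP5PB, also called on average, held none of them. The window given for NDUFA5, at chr7:123601602-123601901 on the minus strand, held none either. It lies upstream of the NDUFA5 gene counted here, which ends at 123558255, so the start of that gene was not searched. The windows lie at chr9:122159730-122160029 on the minus strand and at chr11:112086623-112086922 on the plus strand, and capitals mark the matches, which in NDUFA8 are 2 overlapping NRF1 matches and in SDHD 1 NRF1 and 1 ETS match, the latter on the other strand:
NDUFA8: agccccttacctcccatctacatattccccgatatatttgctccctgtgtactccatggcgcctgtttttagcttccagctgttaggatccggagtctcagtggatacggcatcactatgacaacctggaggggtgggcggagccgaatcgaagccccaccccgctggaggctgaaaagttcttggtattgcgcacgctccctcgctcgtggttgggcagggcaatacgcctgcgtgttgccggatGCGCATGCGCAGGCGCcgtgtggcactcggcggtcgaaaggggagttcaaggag
SDHD: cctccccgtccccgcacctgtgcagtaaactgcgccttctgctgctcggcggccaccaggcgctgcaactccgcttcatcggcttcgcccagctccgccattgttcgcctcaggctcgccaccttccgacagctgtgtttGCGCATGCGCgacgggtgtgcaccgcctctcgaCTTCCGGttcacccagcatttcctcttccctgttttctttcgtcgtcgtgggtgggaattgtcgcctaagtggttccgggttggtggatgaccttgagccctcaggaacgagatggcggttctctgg

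Lists of genes around the respiratory chain were read in the same way. Of 24 genes of the citrate cycle and the pyruvate dehydrogenase complex, 14 were higher and 1 was lower on average, with a median log2 fold change of 0.14. PDK4, the kinase that shuts off pyruvate dehydrogenase, had 85.6 to 144 CPM in dex libraries and 23.3 to 39.0 in EtOH libraries and rose at every time point, by 1.92 on average (SE 0.05, adjusted p = 1.04e-21 by edgeR). PDP1, a phosphatase that reactivates the complex, was 0.57 higher and PDK3 fell by 0.36.

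Among 14 nuclear regulators of mitochondrial biogenesis, of which 12 were tested, 4 were higher and 3 lower on average. PPARGC1B, a coactivator of such genes, had 11.3 and 11.4 CPM with EtOH and 46.5 and 42.8 with dex at 5 h (log2 fold change 1.97, SE 0.14, adjusted p = 2.11e-15 by edgeR). It was called from 3 to 11 h, with no overlap, and not at 1 h. TFEB, a factor of lysosomal genes, was 0.66 higher and the deacetylase SIRT1 fell by 0.36 on average.

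Of 49 assembly factors of the respiratory complexes 11 were higher and 1 lower on average. Among them, COX10, an enzyme on the route to the heme A of complex IV, was at 0.36, TMEM70 at 0.35 and COA7 at 0.34. Of 21 electron carriers, exchangers and uncouplers 4 were higher and 2 lower, with COQ8B of ubiquinone synthesis at 0.66, the carrier UCP2 at 0.50 and cytochrome c (CYCS) at 0.18. Of 76 mitochondrial ribosomal proteins 5 were higher and 2 lower, led by MRPS23 (0.52), MRPS6, which fell by 0.39, and MRPL16 (0.18). Of 30 genes of mitochondrial transcription, replication and RNA handling 3 were higher and 4 lower, with MGME1, a nuclease of mitochondrial DNA, at -0.29, TFB1M at -0.26 and FASTKD5 at 0.23. These shares stand beside 16.4% and 17.6% of all features.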

How the data were processed

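Poly-A RNA-seq of A549 cells was analysed in 24 libraries. Libraries were stranded, and reads single-end with 50 bases. The authors aligned them with Bowtie to GENCODE transcripts (hg19 per the labels) and deposited, without normalization, the count per transcript that samtools gave. The placing of reads with several matching transcripts and the use of strand in counting are not given in the sources used here. Of 119207 transcripts, 110261, with 94.1% of the counts, were joined to genes by identifiers without version (GENCODE release 29). Unmatched transcripts stayed as they were, and the row for unplaced reads held 0.

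Counts were summed per gene, because the study's choice of the transcript with the smallest p gives genes with many transcripts more chances than the mitochondrial genes with 1. That choice was run as an alternative. edgeR 4.0.16 (R 4.3.3) was used with TMM, filterByExpr over 12 groups and the robust quasi-likelihood F-test, for each time point (2 against 2 libraries) and in one fit over 24, with Benjamini-Hochberg adjustment over 19897 features and a threshold of 0.1. The biological coefficient of variation was 6.48% at 7 h to 12.7% at 11 h. Standard errors are the log2 fold change over the square root of F. RPKM used the length a read of 50 bases can start in. The test was checked on simulated data. Each p-value sets a difference against the spread between these libraries, which is estimated in part over all features. In the fit over 24 libraries that spread is shared by all groups.

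Named genes were all mitochondrial members, the SDH genes, CYC1, tissue isoforms, ATP5IF1, members called on average (6 largest per direction), at a time point (3 largest), at 4 or more time points, or leading the test between time points, and 3 genes per list. Members, lists and rules were chosen with earlier results of these data known. Read-through genes (NDUFC2-KCTD14, ATP5MF-PTCD1) can share reads with the genes they join. Alternatives were DESeq2 1.42.0, its size factors, library sizes without mitochondrial genes, other filters, a threshold of 0.05, one transcript per gene, the replicate block, one fit over 24 libraries, leaving out each library, the mitochondrial share without its most counted genes, and, added later, an offset for GC content and length.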

Additional observations from a re-analysis of the deposited data

Results flagged for a closer look

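By the interaction term of one edgeR fit over 24 libraries, the dex effect of 9 of 85 nuclear members differed between time points. Of all features, 13.8% passed this test, a larger share than among the nuclear members. Adjusted p-values by edgeR were 0.00876 for SDHD, 0.0256 for UQCRC1, 0.0368 for ATP5PB, 0.0603 for NDUFB7 and 0.066 for ATP5F1B. They were 0.0767 for NDUFV1, 0.0805 for ATP5F1E, 0.0836 for NDUFB6 and 0.0933 for COX6B1. NDUFB7, a complex I subunit, ran from a log2 fold change of 0.55 at 5 h to -0.44 at 9 h, where it was not called (adjusted p = 0.257 by edgeR). NDUFB6 of the same complex was at -0.50 at 11 h and between 0.02 and 0.13 before, and was called at no time point. ATP5F1E, the epsilon subunit of the ATP synthase, was at 0.50 at 1 h and at -0.29 at 11 h, and was called at neither. Groups of 2 libraries are too small for a test of outlying samples.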

How the results depend on the processing

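Members called ran, when a library was left out, from 0 to 7 at 1 h, 5 to 24 at 3 h, 7 to 31 at 5 h, 7 to 38 at 7 h, 0 to 49 at 9 h, 0 to 27 at 11 h, 8 to 26 on average, 3 to 20 for a difference between time points and 0 to 5 over time in EtOH. A lone library left in a group was assumed to vary like the other group. The average count was lowest without dex replicate 2 at 5 h and highest without EtOH replicate 2 at 9 h. At an adjusted p of at most 0.05 there were 8 at 3 h, 10 at 5 h and 3 for a difference between time points. One fit over 24 libraries gave 1 at 3 h, 9 at 5 h, 8 at 7 h, 4 at 9 h and 2 at 11 h. DESeq2 gave 3 at 3 h, 5 at 5 h, 13 at 7 h and 10 over time in EtOH. Without a filter there were 1 at 1 h, 2 at 11 h, 22 on average (9 of them mitochondrial and higher), 37 for a difference between time points and 27 over time in EtOH. One transcript per gene gave 8 at 3 h and 2 at 11 h, and the offset for GC content and length, chosen after seeing the data, 7 at 3 h and 2 at 11 h. The mitochondrial share of member counts was 79.3% without its 2 most counted genes. With the replicate block, 8 were called at 1 h, 19 at 9 h (10 mitochondrial) and 3 at 11 h. The study's methods speak of a paired EtOH control, and the main fits did not use pairing. Deviations of same-numbered libraries correlated between -0.06 and 0.14, which cannot show whether the libraries were paired. The causes of the changes in the number of members called were not tested. For most of these fits the share of all features called is not given. Their counts therefore cannot tell a change in the members from a change in calls over all features. NDUFA8, SDHD, ATP5MC3 and ATP5F1B kept their average call in all 31 alternatives run for each and ATP5MGL in 30. Mitochondrial pseudogene counts could not be added, since the table held 0 such features.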
